A study of Mus musculus with 12 samples.

Results

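The 40 genes described here encode proteins of the tight junction and of the polarity complexes that position it. They were chosen by gene symbol, and each of the 40 symbols had a row among the 54227 genes of the deposited table. By role they comprised 13 claudins, 6 other membrane proteins of the junction, 6 proteins of the cytoplasmic plaque beneath it, 7 genes of the PAR complex, 3 of the Crumbs complex and 5 of the Scribble complex. A filter on low values kept genes whose normalised counts averaged at least 10 across the 12 libraries. It was passed by 36 members, and these 36 entered the test with 16128 genes in all. The 4 others, Cldn1, Cldn10, Cldn14 and Pard6a, were at 0 in nearly every library and are given by their values. The filter used the mean over all libraries, so a member high in a single population could pass through that population alone.

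Tight junctions close the gap between neighbouring epithelial cells. Claudins form the strands and set which ions pass, occludin and the JAM proteins lie beside them, and plaque proteins such as ZO-1 tie the strands to actin. The PAR and Crumbs complexes mark the apical side of the cell and the junction, while the Scribble complex holds the basolateral side. In the liver, cholangiocytes and hepatocytes both build such junctions to keep bile out of blood, and vascular endothelial cells build their own with claudin 5 as the typical claudin.

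The cells came from livers of C57Bl/6 mice that had been fasted for 16 h and that carried the Sox9EGFP transgene, in which EGFP fluorescence reports expression of Sox9, a transcription factor of bile duct cells. Dissociated cells were sorted by fluorescence into an EGFP-negative population (neg) and 3 EGFP-positive ones of rising brightness called sub, low and high. The neg cells carried the same transgene as the rest, and no library came from mice without it. Each library was made from 12000 sorted cells, with 3 libraries per population and 12 in all. Age, sex and the number of mice are not given in the sources used here, and nothing in the labels says that the 3 libraries of a population came from separate mice, so p-values measure only the spread between these libraries. Same-numbered libraries of the 4 populations carry a shared tag in their column names. Such a tag may name a mouse, but the labels do not give its meaning.

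Depth ranged from 8775387 to 15535588 recovered reads per library, and 1 read was worth 0.691 to 1.22 normalised counts. The gates were set on fluorescence and not on cell type, and each library was a bulk sample, in which fewer cells of a type and less RNA per cell cannot be told apart. Sox9 itself was at most 0.691 in neg, 3707 to 6653 in sub, 8838 to 17140 in low and 11793 to 13969 in high. The summed values of 10 endothelial markers ran from 98052 to 133702 in neg, 28722 to 35996 in sub, 744.6 to 1984 in low and 535.8 to 825.5 in high, and Erg and Emcn were at 0 in every low and high library. The sum of 10 biliary markers ran from 21.2 to 411.8 in neg, 16063 to 29084 in sub, 57490 to 74327 in low and 51003 to 57284 in high, with Epcam, Spp1 and Pkhd1 at 0 in neg. Stellate cell markers summed to 12516 to 21477 in neg, 16795 to 22579 in sub and at most 2012 in low and high. Hepatocyte markers summed to at most 728.2 in neg, 6701 to 7205 in sub and 13918 to 21610 over low and high, most of it Alb and Ahsg in low and high. Some other markers of that list did not follow: Apoa1 was at 210.5 to 616.4 in neg and at most 247.2 in low and high, Cps1 and Fgb were at 0 in most libraries, and Cyp3a11 was at 0 in all. The neg population was therefore one in which endothelial and stellate markers were high, low and high were ones in which biliary markers were high along with Alb and Ahsg of the hepatocyte list, and sub held markers of all 4 kinds. Kupffer cell markers reached at most 1526 and lymphocyte markers at most 1142 in any library, with C1qa and Cd3e at 0 throughout. Csf1r of the Kupffer list differed, at 0 in neg and 518.6 to 1133 in low and high. Limma called 1 of the 5 tested Kupffer markers higher in low than in neg, and 1 in high.

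Members carried a larger share of the RNA in low and high than in neg and sub. Their summed normalised counts were 27714, 36729 and 28531 in the neg libraries, 35765, 38274 and 28709 in sub, 48736, 49340 and 56155 in low and 52645, 44356 and 49508 in high. Every low and high library lay above every neg and sub library. As a share of all summed values the members took 0.258 to 0.342% in neg, 0.261 to 0.339% in sub, 0.432 to 0.492% in low and 0.401 to 0.488% in high. The number of members with more than 3 reads was 16 to 19 per neg library and 23 to 29 per library of the EGFP-positive populations. Only 10 members had more than 3 reads in all 12 libraries.

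Of the role groups, the plaque and Crumbs sums showed this separation and the other 4 did not. Claudins summed to 760.2 ± 663.5 in neg, 1617 ± 1007 in sub, then 4925 ± 571.6 in low but 2769 ± 928.1 in high (mean ± SD, n = 3 here and below). PAR complex genes summed to 2988 ± 2265 in neg, 3747 ± 339.4 in sub, then 8004 ± 1847 in low but 5186 ± 470.4 in high. Crumbs complex genes summed to 2527 ± 1172, 3628 ± 607.4, 6445 ± 1760 and 5688 ± 1474 in the same order. Plaque proteins stood at 17308 ± 876.7, 16689 ± 2468, 21912 ± 2642 and 25547 ± 2339 in that order. The other membrane proteins summed to 4355 ± 1895, 3979 ± 449.0, 4117 ± 1782 and 4859 ± 814.9, which overlapped between all populations, although Ocln and Jam2 among them moved in opposite directions. Scribble complex sums of 3052 ± 868.6, 4589 ± 2354, 6008 ± 1914 and 4788 ± 1414 were lower in every neg library than in every low and high library, and those of sub overlapped with all the others. The sums are given as descriptions, without a test.

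**Figure D1:**
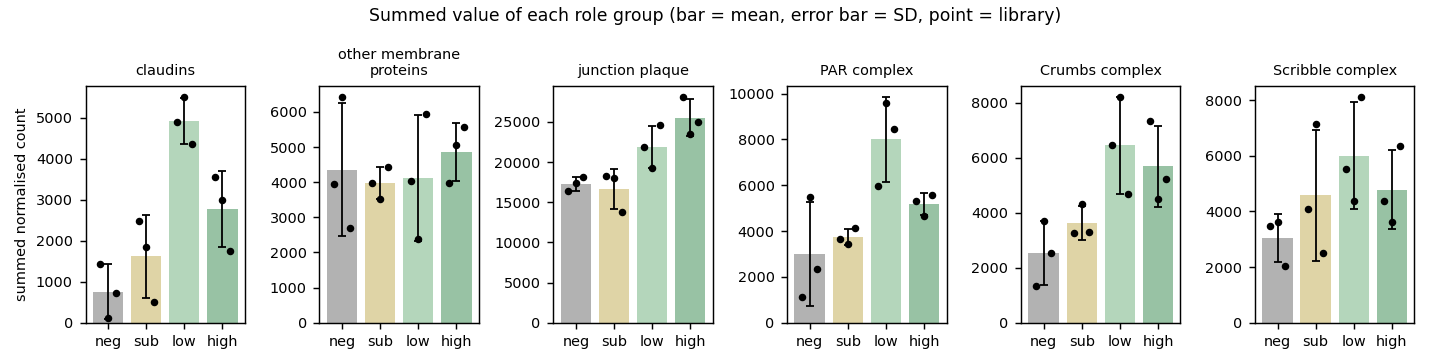
Summed normalised counts of the members of each role group (vertical axis, linear, separate scale per panel) in the 4 sorted populations (horizontal axis). Bars are means, error bars are SDs and points are the 3 libraries. The claudin sum is highest in low (4925 ± 571.6), while the sum of the other membrane proteins is similar in all 4 populations.

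The members were compared between populations with limma on log2(normalised count + 1), adjusted over all 16128 genes by the Benjamini-Hochberg method, and called at an adjusted p under 0.05. Against neg, 10 of the 40 members were called in low, 8 higher and 2 lower. Of all tested genes 4.69% were called in that comparison, 2.55% higher and 2.15% lower. In high against neg, 9 members were called, 7 higher and 2 lower, where again 4.69% of all tested genes were called, 2.44% higher and 2.25% lower. The median log2 fold change of the 36 tested members was 2.62 in low against neg and 2.71 in high against neg, beside 0.00 and 0.13 over all tested genes. With any one library left out the counts were lower or equal, at 4 to 8 members in low and 4 to 9 in high against neg, and the count was at most 6 in low against neg without neg 1, neg 3 or any one low library, and at most 6 in high against neg without neg 1, neg 3 or any one low or high library. Both comparisons share the 3 neg libraries. On the recovered reads of 10 libraries edgeR called 9 members in low and 8 in high against neg, where it called 4.53% and 3.96% of all tested genes, and DESeq2 called 15 and 12, where it called 11.6% and 11.4%. Each member was also put on a side by its values alone: on the epithelial side where every low and high library lay above every neg library, and on the endothelial side where every neg library lay above every low and high library. The epithelial side held 10 members (Cldn3, Cldn4, Cldn7, Ocln, F11r, Magi1, Pard3, Pard6b, Patj and Llgl2), where 5.03% of all tested genes met that rule, and the endothelial side held Jam2 and Tjp1, where 5.99% met it. The other 28 members were on neither side. The names of the sides follow the markers above and are no assignment to a cell type, since stellate markers were also high in neg and Alb and Ahsg in low and high, and the part of each cell type in a member's value was not tested.

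**Figure D2:**
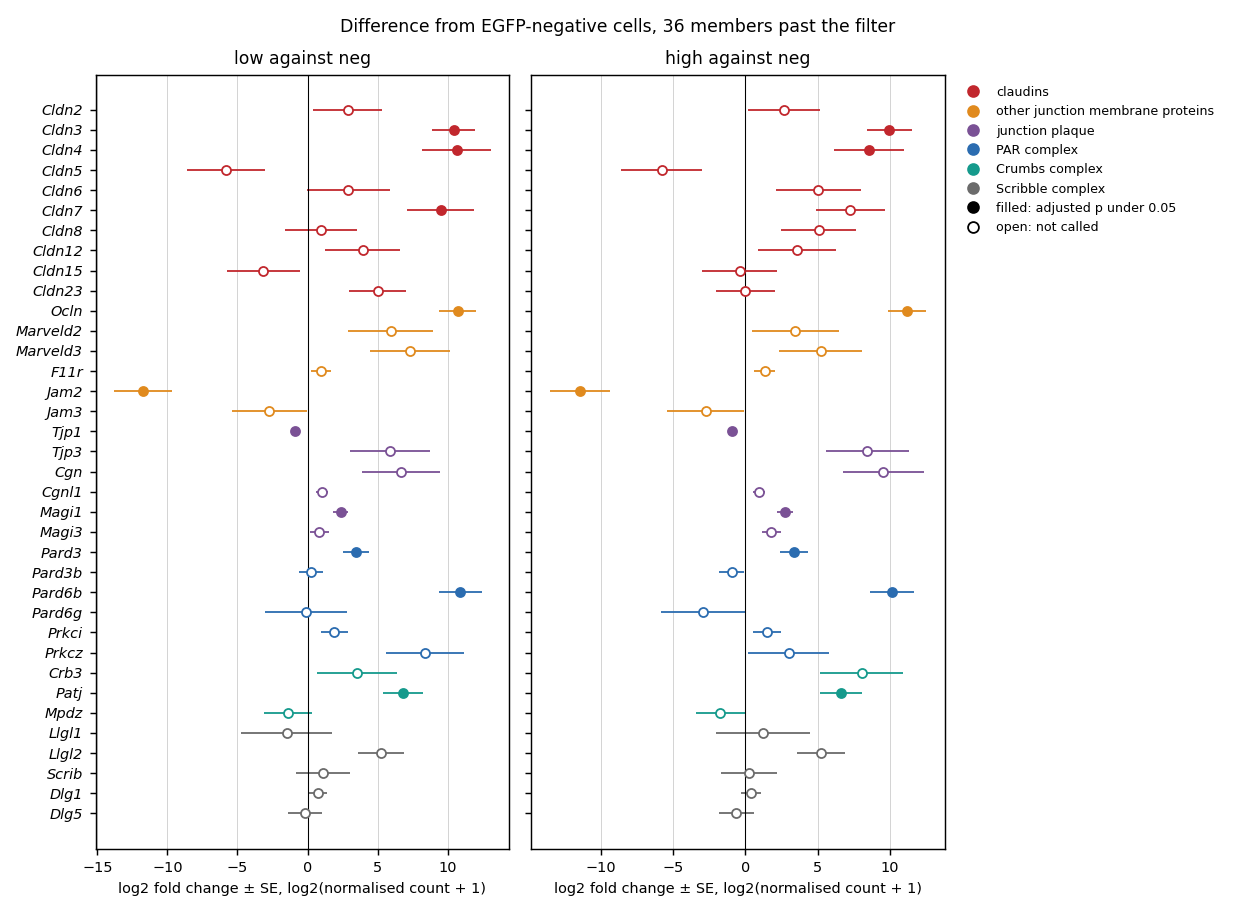
Fitted log2 fold changes with standard errors on the log2(normalised count + 1) scale (horizontal axis) for the 36 tested members, in low against neg and high against neg. Colours give the role group and filled points were called at an adjusted p under 0.05. Values for members at 0 in 1 of the populations depend on the pseudocount of 1 and are not bounds. Cldn3, Cldn4, Cldn7, Ocln, Cgn, Pard6b and Patj lie far to the right in both panels, and Jam2 far to the left. Of these, Cgn was called in neither panel and Cldn7 in low against neg only. Some members that were not called lie as far in a single panel, such as Prkcz in low and Tjp3 in high against neg.

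Among the claudins, 3 were on the epithelial side, 0 on the endothelial side and 10 on neither. Cldn3 and Cldn4, both claudins typical of simple epithelia, and Cldn7, which also lies along the lateral membrane of epithelial cells, were the 3. Cldn3 was at 1.38, 0 and 0 in neg, 662.5, 137.4 and 396.0 in sub, 1319, 2788 and 1696 in low and 1159, 2162 and 918.8 in high. The neg libraries held 2 Cldn3 reads between them, and neither neg and sub nor sub and the brighter populations overlapped. The ratio of mean Cldn3 values was 4199 for low over neg (95% counting interval 1163 to 34676; limma adjusted p = 0.000304) and 3068 for high over neg (849.3 to 25333; adjusted p = 0.000457). Such intervals, and the floors used below, cover counting error only, since no molecular identifiers are mentioned and several reads may stem from 1 molecule.

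Cldn4 was at 0 in every neg library, at 487.9, 1709 and 0 in sub, at 1670, 1457 and 1641 in low and at 1309, 267.8 and 150.3 in high. The low libraries were close to each other, every high library lay below every low one, and the sub libraries ran from 0 to above low. Against a floor of 3 reads per neg library, the mean of Cldn4 in low was at least 433.2-fold higher (limma adjusted p = 0.0139). That in high exceeded the same floor at least 156.9-fold (adjusted p = 0.049). Both calls were sensitive to single libraries: without any one neg or low library the adjusted p for low against neg was 0.0648 to 0.0833, and without any one neg, low or high library, or without sub 1, that for high against neg was 0.078 to 0.224. The high call was also lost by limma with a pseudocount of 5 (0.051), no filter on low values (0.0803) or no variance trend (0.0665). In a fit of high and neg alone it was lost too (0.0884), while edgeR and DESeq2 on 10 libraries made both calls.

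Cldn7 was at 0, 0 and 0.966 in neg, where 0.966 was a single read, at 349.3, 0 and 54.9 in sub, at 1279, 993.2 and 592.6 in low and at 393.7, 65.7 and 267.9 in high. All 3 low libraries lay above all 3 libraries of sub and of high. The ratio of means for low over neg was 2967 (counting interval 532.5 to 117179; limma adjusted p = 0.0258), and the call was lost without neg 1, neg 2, or any one low library, at adjusted p of 0.0565 to 0.0792. In high against neg limma did not call Cldn7 on all 12 libraries (adjusted p = 0.0958), but called it without sub 1 (0.0487) or sub 2 (0.0185), as did DESeq2 on 10 libraries (0.000153). On those 10 libraries neither edgeR (0.0564) nor limma called it. DESeq2 also called Cldn7 higher in sub than in neg (adjusted p = 0.000868), where edgeR did not (0.185). That call rests on sub 1 alone, since sub 2 was at 0 and sub 3 was left out. Per kb of merged exon, Cldn3 stood at 1536 ± 605.9 in low, Cldn4 at 875.2 ± 63.6 and Cldn7 at 490.3 ± 177.1, in that order in each low library. In high the order of the means was the same, at 1122 ± 523.7, 317.1 ± 351.3 and 124.5 ± 85.0 per kb.

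The claudin of endothelium, Cldn5, was detected in the populations with endothelial markers and nowhere else. It was at 1441, 117.4 and 0 in neg, at 459.1, 0 and 64.8 in sub and at 0 in all 6 low and high libraries. With neg 3 at 0, Cldn5 met neither side's rule. Limma did not call it, with or without neg 3 (on all 12 libraries, adjusted p = 0.314 in low against neg and 0.307 in high against neg). On the recovered reads of 10 libraries DESeq2 did call it (adjusted p = 0.0145 and 0.0376), and edgeR did not (0.155 and 0.396). The endothelial marker sums of neg 1 to 3 were 111012, 133702 and 98052, and so were not in the order of Cldn5.

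The remaining 9 claudins were found in 2 to 5 libraries or in none. Cldn1, Cldn10 and Cldn14 were at 0 in all 12 libraries. Cldn2, a claudin of leaky epithelia, was at 379.2 in low 1 and 268.2 in high 1, and at 0 elsewhere. Cldn6 was at 143.7 in sub 1, 436.4 in low 3, and 376.0 and 93.1 in high 2 and high 3. Cldn8 reached 190.1 in sub 1, 6.68 in low 1, and 322.8 and 119.3 in high 1 and high 2. These claudins were each missing from at least 1 library of every population in which they occurred. Cldn12 was at 196.8 in sub 1, 28.9 and 118.1 in low 1 and low 2, and 103.0 and 15.2 in high 1 and high 2. Cldn15 was at 719.5 in neg 3 and 315.3 in high 3 only. Cldn23 was at 217.5 and 152.9 in low 1 and low 2 and at 0 in the other 10 libraries. By limma on all 12 libraries none of these 6 was called in any of the 6 comparisons. On the reads of 10 libraries DESeq2 called Cldn8 higher than neg in sub (adjusted p = 9.6e-06), low (0.000573) and high (4.03e-06). Each call rests on the reads of 1 library, sub 1, low 1 and high 1 in that order, since high 2 was left out. On the same reads edgeR called none of these differences (0.687, 0.655 and 0.569). Without low 3, limma called Cldn23 higher in low than in neg (adjusted p = 0.00546) and sub (0.0219) and lower in high than in low (0.0487). Low 3 was the low library at 0 and Cldn23 passed the filter through low alone, so nothing is concluded from these calls. With replicate libraries split between 0 and much larger values, no direction is given for any of these 6 claudins.

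**Figure D3:**
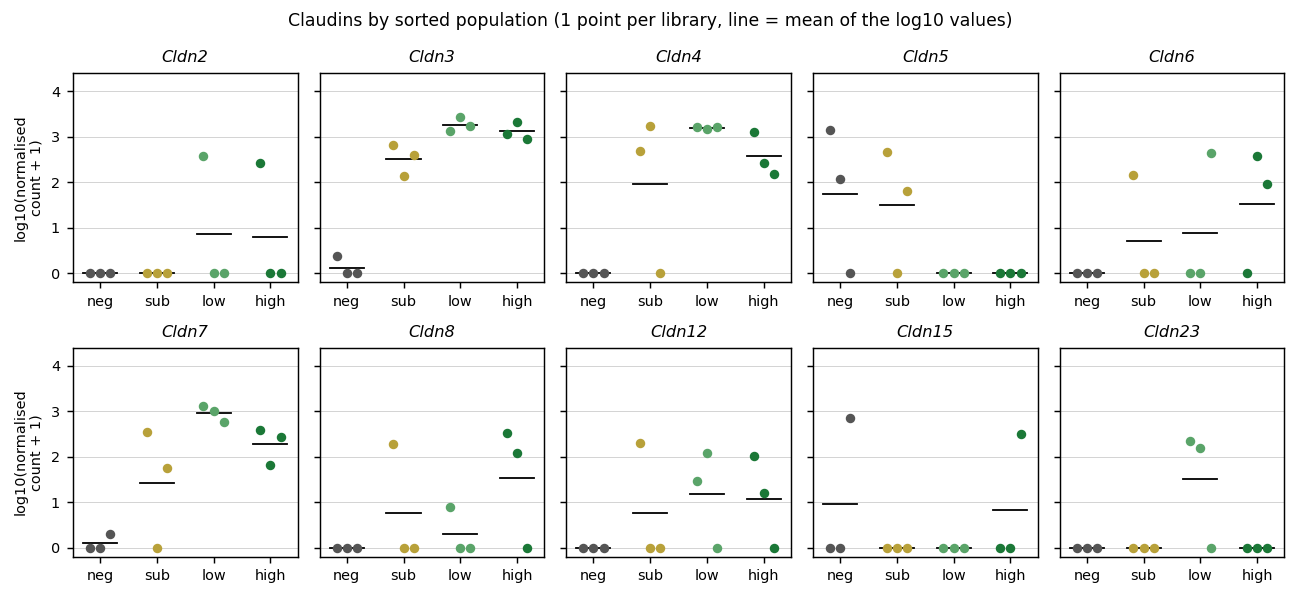
The 10 claudins with a mean of at least 10, as log10(normalised count + 1) on the vertical axis against sorted population, with 1 point per library and a line at the mean of the log10 values. Cldn3 rises from neg through sub to low, Cldn4 and Cldn7 are near 0 in neg and high in all low libraries, Cldn5 is found in neg and sub only, and the others are scattered over single libraries.

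The promoters of the 3 epithelial claudins are shown because these genes were high together in low, those of Cldn5 and of Cgn because they hold the motif searched, and all are printed 5′ to 3′ on the gene's strand from 250 bases before to 50 bases after the RefSeq start (GRCm38.p6, the build called mm10). Cldn3 (chr5:134986214-134987472, plus strand) and Cldn4 (chr5:134945119-134946934, minus strand) are neighbours that point away from each other, with 39279 bases between the gene models. Cldn7 lies at chr11:69964779-69967885 and Cldn5 at chr16:18776847-18778262, both on the plus strand, and Cgn at chr3:94760069-94786492 on the minus strand. The windows are Cldn3 chr5:134985964-134986263, Cldn4 chr5:134946885-134947184, Cldn7 chr11:69964529-69964828, Cldn5 chr16:18776597-18776896 and Cgn chr3:94786433-94786732. Capitals mark the letters that match the motif.
Cldn3: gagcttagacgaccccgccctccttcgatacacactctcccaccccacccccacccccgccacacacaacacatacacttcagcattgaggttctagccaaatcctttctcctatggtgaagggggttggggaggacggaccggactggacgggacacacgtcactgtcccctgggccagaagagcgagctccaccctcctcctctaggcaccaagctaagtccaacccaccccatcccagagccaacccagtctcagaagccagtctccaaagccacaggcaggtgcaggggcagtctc
Cldn4: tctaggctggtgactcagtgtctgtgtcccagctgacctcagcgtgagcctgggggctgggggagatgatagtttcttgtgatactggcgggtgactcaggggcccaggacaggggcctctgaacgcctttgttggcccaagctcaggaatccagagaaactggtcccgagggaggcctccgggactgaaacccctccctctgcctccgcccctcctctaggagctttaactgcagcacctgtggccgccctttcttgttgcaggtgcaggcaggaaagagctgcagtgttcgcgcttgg
Cldn7: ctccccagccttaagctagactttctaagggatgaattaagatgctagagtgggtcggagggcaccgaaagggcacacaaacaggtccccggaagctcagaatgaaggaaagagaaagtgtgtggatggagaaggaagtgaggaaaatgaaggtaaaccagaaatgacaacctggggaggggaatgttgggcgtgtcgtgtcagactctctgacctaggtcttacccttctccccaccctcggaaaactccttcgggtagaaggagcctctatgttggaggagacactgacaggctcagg
Cldn5: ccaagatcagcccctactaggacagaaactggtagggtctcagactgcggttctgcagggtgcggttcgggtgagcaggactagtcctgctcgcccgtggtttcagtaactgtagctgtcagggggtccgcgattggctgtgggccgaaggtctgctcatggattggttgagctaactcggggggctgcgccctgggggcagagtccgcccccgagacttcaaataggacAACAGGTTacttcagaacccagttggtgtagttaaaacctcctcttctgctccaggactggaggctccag
Cgn: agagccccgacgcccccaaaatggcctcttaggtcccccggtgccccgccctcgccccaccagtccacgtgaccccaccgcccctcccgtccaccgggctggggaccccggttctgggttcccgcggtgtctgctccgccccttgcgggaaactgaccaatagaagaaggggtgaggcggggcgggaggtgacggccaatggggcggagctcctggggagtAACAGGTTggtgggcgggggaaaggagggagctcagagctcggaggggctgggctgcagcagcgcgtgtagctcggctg
The motif was AACNGGTT, the core bound by grainyhead-like factors, which are known regulators of junction genes in epithelia, and its reverse complement AACCNGTT. Promoters were given for 31 of the 40 members, and the motif was found in 2 of them, Cgn at 29 bases and Cldn5 at 20 bases before the start. That is 6.45% of the members with a promoter, beside 2.35% of all 27025 genes with one. The windows of Cldn3, Cldn4 and Cldn7 do not hold these letters. Another window listed for Cldn7 is not printed. No promoter was printed or searched for Cldn8, Cldn23, Marveld3, Jam2, Jam3, Pard6g, Mpdz, Llgl2 and Scrib. A match is a description of the sequence and no measurement of binding.

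Occludin and JAM-B stood at opposite ends of the other membrane proteins. Ocln, whose product occludin spans the membrane beside the claudins, was at 0, 0 and 0.966 in neg, 1047, 503.8 and 883.7 in sub, 2402, 1135 and 3431 in low and 2379, 2914 and 3790 in high. A single read was found over the 3 neg libraries, and every sub library lay between those of neg and those of low and high. Ocln was higher than in neg in sub (limma adjusted p = 0.000349), in low (3.1e-05) and in high (1.88e-05), with ratios of means of 2521, 7215 and 9404. The counting intervals of these ratios ran from 452.5 to 99571, from 1295 to 284965 and from 1688 to 371456.

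Jam2 encodes JAM-B, an adhesion molecule known from endothelial junctions. It was at 3195, 5463 and 2196 in neg, 1538, 997.2 and 1997 in sub, 0, 0 and 0 in low and 0, 0 and 0.817 in high. The low and high libraries held 1 Jam2 read in all, and every neg library lay above every sub library. In low, Jam2 was at least 1419-fold lower than in neg (limma adjusted p = 0.0018) and at least 592.7-fold lower than in sub (0.0246). In high, the ratio of means was 13290 for neg over high (counting interval 2385 to 524943; adjusted p = 0.00206) and 5549 for sub over high (996.0 to 219181; 0.0224). The endothelial and stellate marker sums were also low in the same libraries, and their part in the Jam2 difference was not tested.

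F11r, encoding JAM-A, a JAM of epithelia that other cells such as platelets and leukocytes also carry, was present everywhere. It was at 740.7, 662.8 and 508.0 in neg, 870.4, 1012 and 983.5 in sub, 794.1, 1153 and 1954 in low and 1413, 1621 and 1769 in high. No EGFP-positive library lay as low as any neg library, yet the fitted difference of 1.34 ± 0.72 (log2, SE) in high against neg was not called (limma adjusted p = 0.384). Jam3, encoding JAM-C, was at 298.4 in neg 2, 0.737, 1017 and 303.2 in sub, and 0 in the other neg libraries and in all low and high libraries. An antisense gene, Gm48796, covers 36.2% of the Jam3 exon length, and strand use in counting is not given in the sources used here, so Jam3 reads are uncertain. Gm48796 was at 242.1 in neg 2 and 53.8 in sub 2, 2 of the libraries with Jam3 reads. Marveld2 (tricellulin, of junctions where several cells meet) ranged from 0 to 630.1 and Marveld3 from 0 to 437.0, both at 0 in every neg library, and neither was called by limma in any of the 6 comparisons. DESeq2 on 10 libraries called Marveld3 higher than neg in sub (adjusted p = 1.61e-08), low (3.82e-10) and high (1.1e-07), and Marveld2 in low (0.0243). With sub 3 and high 2 left out, the sub call of Marveld3 rests on sub 1 alone (437.0, with sub 2 at 0). Its high call rests on high 1 alone (167.9, with high 3 at 0). On the same reads edgeR called neither gene (adjusted p = 0.636, 0.405 and 0.518 for Marveld3 and 0.365 for Marveld2).

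In the plaque, Tjp1 was highest in neg and Magi1 in low and high. Tjp1 encodes ZO-1, a scaffold of both epithelial and endothelial junctions. It was at 10829, 9907 and 10890 in neg, 6969, 6997 and 5046 in sub, 5436, 5104 and 6288 in low and 6570, 5193 and 4967 in high. All neg libraries lay above all others, while the 3 EGFP-positive populations overlapped. Tjp1 fell by 0.91 ± 0.24 (log2, SE) in low against neg (1.88-fold; limma adjusted p = 0.0352) and by 0.93 ± 0.24 in high against neg (1.89-fold; 0.0326). These were the smallest changes called among the members, and they depended on single libraries: the first was lost without neg 1, neg 3, low 1 or low 2 (adjusted p 0.0638 to 0.0884) and the second without neg 1, neg 3, high 2 or high 3 (0.0589 to 0.0843). Neither count test called Tjp1, with adjusted p of 0.409 and 0.569 by edgeR and 0.246 and 0.349 by DESeq2 in low and high against neg. In limma both were also lost with no variance trend (adjusted p = 0.665 in each) and with no filter on low values (0.0648 and 0.0584). Fits of only the 2 populations compared lost both too (0.102 and 0.082), and limma on the same 10 libraries lost the second (0.0551).

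Magi1, a large scaffold of epithelial junctions, was at 446.3, 3481 and 763.0 in neg, 4946, 4355 and 3171 in sub, 6747, 4749 and 5281 in low and 7668, 7783 and 5911 in high. The neg libraries differed widely, with neg 2 above sub 3. Magi1 rose by 2.38 ± 0.54 in low (3.58-fold by means; limma adjusted p = 0.0135) and by 2.74 ± 0.54 in high (4.56-fold by means; 0.00481) against neg. Without neg 1, neg 3 or any one high library the high call was lost (0.0546 to 0.0836), and the low call was lost without any one library other than neg 2 (0.0597 to 0.142). On 10 libraries edgeR called both differences, while DESeq2 (0.131 in low and 0.118 in high) and limma (0.125 and 0.13) called neither. With no variance trend limma also lost both (0.302 and 0.207). Magi3, its relative, was at 2258, 1903 and 344.8 in neg, 975.7, 1878 and 1133 in sub, 3120, 1226 and 2119 in low and 4134, 4075 and 3700 in high. Each high library lay above each library of the other populations, but limma called Magi3 in no comparison.

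Cgn encodes cingulin, which links ZO-1 to myosin. It was at 8.98, 0 and 0 in neg, 927.8, 1472 and 0 in sub, 1824, 2.55 and 1634 in low and 2499, 1740 and 949.9 in high. In both sub and low 1 library was near 0 and the other 2 were not, and the libraries of high did not overlap neg. The difference in high against neg missed the threshold in limma (adjusted p = 0.058) and passed it in edgeR (1.29e-05) and DESeq2 (6.44e-05) on 10 libraries. Limma called it with a pseudocount of 5 (0.0292), in a fit of high and neg alone (0.0406) and without sub 3 (0.0413). On 10 libraries edgeR and DESeq2 also called Cgn higher than neg in low (2.34e-05 and 3.79e-05) and sub (9.35e-05 and 0.000216). On all 12 libraries limma called neither of these (0.228 and 0.538). Cgn has a near-identical copy, BC021767, with 98.718% identity over 1716 aligned bases, and counting could have split reads between them. BC021767 was at 0 in neg, at 549.6 in sub 3 and at 608.3 in low 2, in which Cgn was near 0, and at 254.6 in low 1, 175.1 in low 3 and 209.2 in high 2, in which Cgn was not. Summed over both genes, the values were 8.98, 0 and 0 in neg, 927.8, 1472 and 549.6 in sub, 2079, 610.9 and 1809 in low and 2499, 1950 and 952.3 in high, so that with both genes counted every EGFP-positive library lay above every neg library. Cgnl1 (paracingulin) ranged from 2085 to 8857 and Tjp3 (ZO-3) from 0 to 641.9, and limma called neither in any comparison. DESeq2 on 10 libraries called Tjp3 higher than neg in sub (adjusted p = 0.00147), low (0.000178) and high (0.000133), where edgeR did not (0.291, 0.111 and 0.0941).

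**Figure D4:**
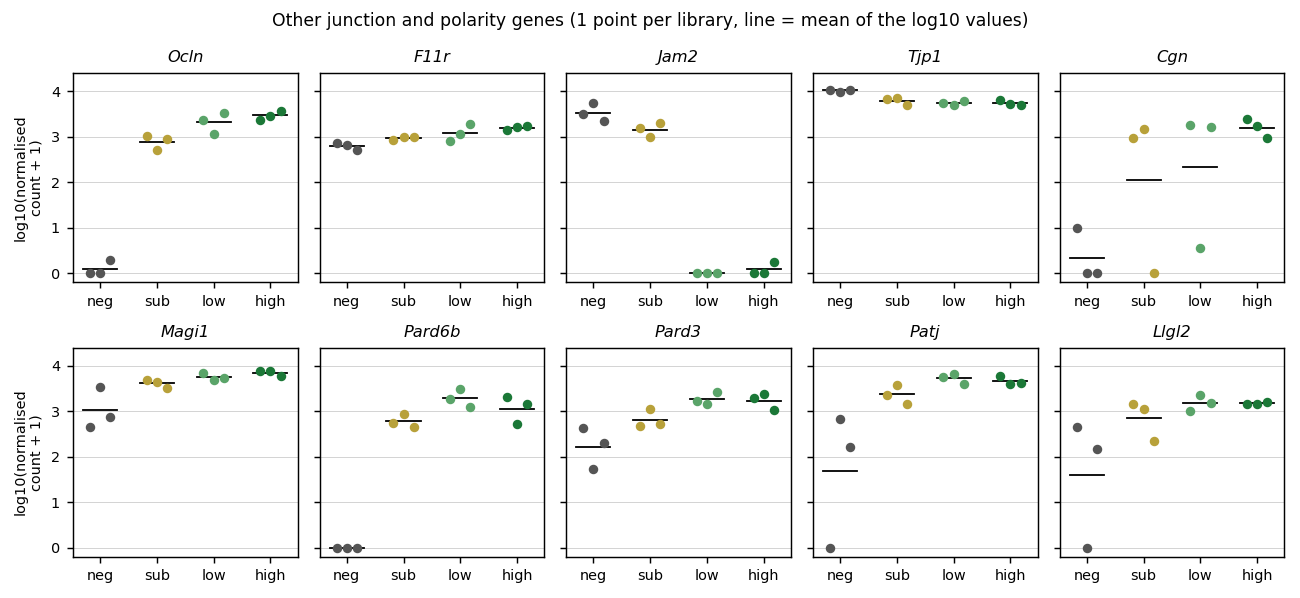
Members outside the claudins that the text describes, as log10(normalised count + 1) on the vertical axis against sorted population, with 1 point per library and a line at the mean of the log10 values. Ocln and Pard6b are near 0 in neg and present in all EGFP-positive libraries, Jam2 is near 0 in low and high, Tjp1 is slightly higher in neg, and 1 sub and 1 low library stand near 0 for Cgn.

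In the PAR complex, Pard6b and Pard3 rose by limma, which called none of the other genes. Pard6b encodes a PAR6 adaptor that joins CDC42 to atypical protein kinase C. It was at 0 in every neg library, 546.1, 882.7 and 455.8 in sub, 1844, 3026 and 1263 in low and 2017, 515.4 and 1407 in high. No EGFP-positive library came near 0, and the low libraries lay above those of sub. Pard6b was at least 171.2-fold higher in sub (limma adjusted p = 0.00151), at least 557.3-fold higher in low (0.000136) and at least 357.9-fold higher in high (0.000276) than the floor of 3 reads per neg library. Its relatives Pard6a and Pard6g were sparse, with Pard6a at 75.3 in neg 3 and 0 elsewhere and Pard6g at 420.1 in neg 3, 251.4 in sub 3, 330.5 in low 2 and 0 elsewhere.

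Pard3, the scaffold that brings the complex to the junction, was at 428.4, 53.8 and 196.1 in neg, 468.7, 1143 and 513.7 in sub, 1651, 1414 and 2661 in low and 1936, 2416 and 1065 in high. The libraries of neg, sub and low followed each other without overlap. Pard3 rose by 3.46 ± 0.95 in low (8.44-fold by means; limma adjusted p = 0.0412) and 3.36 ± 0.95 in high (7.99-fold by means; 0.0483) against neg. The calls were near the threshold: without neg 2, neg 3, high 1, high 2 or any one low library the first was at 0.053 to 0.114, and without neg 2, neg 3 or any one low or high library the second was at 0.0513 to 0.128. With the replicate number as a block both were lost, at 0.0593 and 0.0677. On 10 libraries edgeR (0.142 and 0.319) and limma (0.0669 and 0.144) called neither, and DESeq2 called the first but not the second (0.051). The second was also lost by limma with a pseudocount of 0.5 (0.0508) and on rescaling to equal totals (0.0523). Pard3b ranged from 340.9 to 4083 and the kinase gene Prkci from 146.8 to 3066, with overlap between all populations. The other kinase gene, Prkcz, was at 0 in neg, at 377.3, 0 and 0 in sub, at 534.3, 706.9 and 95.3 in low and at 1.73, 180.9 and 0 in high. Its near-identical copy Prkcz2 (98.528% identity over 1427 aligned bases), with which counting could have split reads, was at 8.09 in high 2 and 0 elsewhere. Prkcz was not called by limma, while DESeq2 on 10 libraries called it higher than neg in sub (adjusted p = 2.67e-11), low (2.33e-15) and high (6.92e-05). The sub call rests on sub 1 alone, the only sub library with Prkcz reads. The high call rests on 2 reads, since high 2 was left out of that fit. On the same libraries edgeR called none of the 3 differences (0.508, 0.215 and 0.713).

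Patj and Mpdz, relatives that both carry many PDZ domains and bind the Crumbs partner PALS1, differed in direction by their means, with Patj higher and Mpdz lower in low and high than in neg. Patj was at 0, 659.2 and 159.4 in neg, 2321, 3761 and 1476 in sub, 5733, 6643 and 3953 in low and 5923, 3985 and 4071 in high. All sub libraries lay above neg and below low and high. Patj rose by 6.81 ± 1.46 in low (20-fold by means; limma adjusted p = 0.0091) and by 6.60 ± 1.46 in high (17.1-fold by means; 0.0112) against neg. The neg mean under these folds rests mostly on neg 2, and the folds would be larger without it. Without any one library other than neg 1 or neg 2, both calls were lost, at 0.0683 to 0.137 and 0.0677 to 0.172. On 10 libraries edgeR called both, DESeq2 called the first but not the second (0.0555), and limma called neither (0.153 and 0.227). Both were also lost by limma with no filter on low values (0.055 and 0.0635) and with no variance trend (0.0989 and 0.105). Mpdz was at 1343, 3027 and 2393 in neg, 944.0, 1.14 and 1812 in sub, 492.8, 1549 and 713.4 in low and 799.6, 434.6 and 771.0 in high. The high libraries lay below the neg ones, by 3.37-fold in the means, and limma did not call Mpdz (adjusted p = 0.661). Crb3, the Crumbs protein of most epithelia, was at 0 in neg and ranged from 0 to 612.6 in the other populations, and was not called by limma.

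None of the 5 Scribble complex genes was called by limma on all 12 libraries with a pseudocount of 1. Llgl2, the LGL gene of epithelia, was at 450.5, 0 and 146.8 in neg, 1443, 1101 and 221.4 in sub, 1032, 2249 and 1516 in low and 1471, 1460 and 1596 in high. It met the rule of the epithelial side, with ratios of means of 8.03 in low and 7.58 in high against neg, but the adjusted p was 0.0809 and 0.0808 in limma. With a pseudocount of 5 both differences were called (adjusted p = 0.0431 and 0.0442). Dlg1 ranged from 855.0 to 2657, Dlg5 from 71.8 to 3465, Scrib from 0 to 1502 and Llgl1 from 0 to 499.3. Dlg1 and Dlg5 had their highest and lowest values in EGFP-positive libraries. Besides Jam3, the members Cldn3, Tjp3, Pard3b, Crb3, Llgl1 and Dlg5 share 14 to 583 exon bases with another gene, at most 4.43% of their exon length, and reads there are uncertain.

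Related genes were set against each other within each library, per kb of merged exon, so that a pair shares its depth. Patj made up 0, 17.1 and 5.95% of Patj plus Mpdz in neg, 70, 100 and 43.6% in sub, 91.7, 80.3 and 84% in low and 87.6, 89.7 and 83.4% in high. All neg libraries lay below all others, and all low and high libraries lay within a narrow range. F11r made up 34.5, 21.6 and 34.4% of F11r plus Jam2 in neg, 56.2, 69.7 and 52.8% in sub, and 100% in each low and high library. In sub the share of F11r lay between those of neg and of the brighter populations in every library, while that of Patj reached 100% in sub 2. Magi1 made up 45.8 ± 27.8% of Magi1 plus Magi3 in neg, and 71.6 ± 7.86%, 68.7 ± 6.32% and 58.9 ± 2.33% in the 3 EGFP-positive populations by rising brightness, with neg below sub and overlapping low and high. Pard3 made up 20.9 ± 26.5% of Pard3 plus Pard3b in neg, and 32.3 ± 20.3%, 51.9 ± 3.98% and 66.9 ± 21.6% in the same order. The shares of Dlg1 in Dlg1 plus Dlg5 overlapped between all populations, with means from 40.3 to 62.3%. No test was made on the shares.

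**Figure D5:**
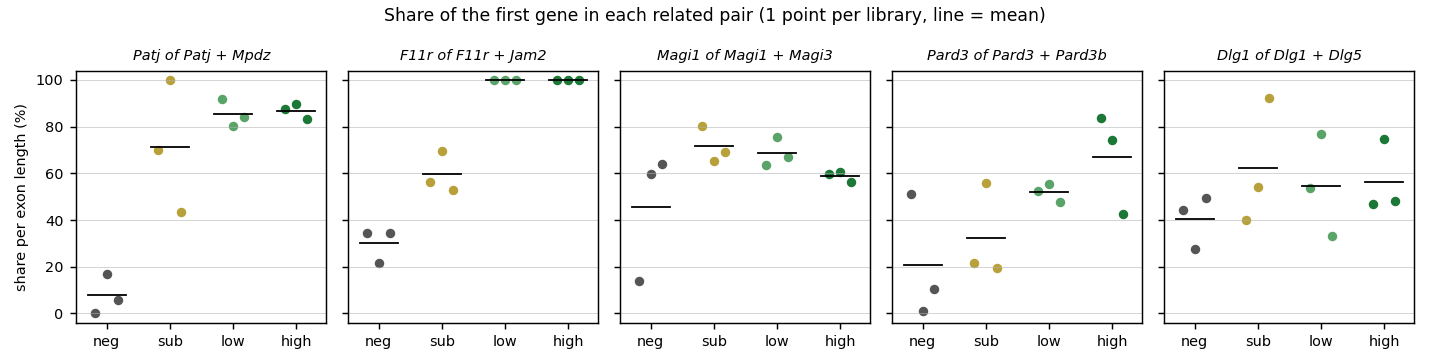
Share of the first gene in each related pair, computed per exon length within each library (vertical axis, percent), against sorted population, with 1 point per library and a line at the mean. The share of Patj is at most 17.1% in neg and at least 80.3% in low and high, and that of F11r is 100% in low and high.

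The length-corrected levels show which members lead in each population. In neg, Tjp1 stood at 1350 ± 70.5 per kb, above Jam2 (598.5 ± 276.9), Cgnl1 (471.5 ± 275.4) and Cldn5 (366.9 ± 565.2), and the last 3 were not separable within their spread. The Cldn5 mean rests mostly on neg 1 (1441 normalised counts, beside 117.4 in neg 2 and 0 in neg 3). F11r, at 239.3 ± 44.5 per kb in neg, varied far less. In low, Cldn3 (1536 ± 605.9), Cgnl1 (905.5 ± 314.8), Cldn4 (875.2 ± 63.6) and Tjp1 (718.1 ± 78.2) led. In high, Cldn3 (1122 ± 523.7), Cgnl1 (855.4 ± 271.2), Ocln (717.1 ± 168.8), Tjp1 (714.0 ± 111.1), Magi1 (673.1 ± 99.2) and F11r (601.2 ± 67.2) formed a series in which no neighbouring pair differed by more than the larger SD. In sub, Tjp1 (811.3 ± 143.1) and Cgnl1 (500.7 ± 114.5) were followed by Cldn4 (403.3 ± 484.9) and Magi1 (393.0 ± 85.5).

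Sub was compared with neg to set the dimmest EGFP-positive cells against cells without EGFP. In sub against neg, 3 members were called, Cldn3, Ocln and Pard6b, all higher, where 1.19% of all tested genes were called, 1.04% higher and 0.149% lower. Patj was not called (limma adjusted p = 0.0735), but was with the replicate number as a block (0.0422) or a pseudocount of 5 (0.0165). On 10 libraries edgeR called Patj (4.4e-05) and DESeq2 did not. Cldn4 was not called by limma (adjusted p = 0.335), but was without sub 3 (0.00397), the sub library in which it was at 0. On the 10 libraries, which also lack sub 3, limma (0.00775), edgeR (7.99e-07) and DESeq2 (5.47e-11) called Cldn4. Limma called Magi1 only without neg 2 (0.00186, beside 0.109 on all 12 libraries), its highest neg library. On 10 libraries edgeR called 6 members, where it called 1.58% of all tested genes, and DESeq2 called 10, where it called 10.2%. The median log2 fold change of the 36 tested members was 1.96, beside 0.00 over all tested genes. Cldn3 had a ratio of means of 865.5 (counting interval 239.6 to 7146; limma adjusted p = 0.00937). In a fit of those 2 populations alone none of the 3 was called (adjusted p 0.562 to 0.652), a limma fit with fewer libraries to estimate the spread, which called 0 of all tested genes and had 928 at an unadjusted p under 0.05. For 8 members the values of sub and neg were fully separate, with Cldn3, Ocln, F11r, Pard3, Pard6b and Patj above and Jam2 and Tjp1 below neg, where 9.68% of all tested genes did not overlap.

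Between sub and the brighter gates, Jam2 was the only member called, lower in low, where 0.744% of all tested genes were called, 0.13% higher and 0.614% lower. It was also lower in high, where 0.986% were called, 0.118% higher and 0.868% lower. In fits of only the 2 populations compared, limma called neither difference of Jam2 (adjusted p = 0.233 in low and 0.113 in high against sub). The 10 members of the epithelial side summed to 11968 ± 3381 in sub, beside 2900 ± 1701 in neg, 24690 ± 830.5 in low and 23269 ± 2362 in high. The 2 of the endothelial side summed to 7848 ± 742.7 in sub, beside 14160 ± 1148 in neg, 5609 ± 610.9 in low and 5577 ± 867.5 in high. These sums describe members chosen by their neg, low and high values, and only their level in sub was not used in the choice. The libraries of low and sub did not overlap for 8 members, where 11.7% of all tested genes did not, and those of high and sub for 10, where 13.1% did not. Jam2 and Jam3 were below sub in both. The endothelial, biliary and hepatocyte marker sums of sub also lay between those of neg and of low and high, and their part in these levels was not tested.

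High and low differed in no member by limma, where 0% of all tested genes were called. At an unadjusted p under 0.05 there was 1 member, Cldn23, beside 684 of all tested genes. On the reads of 10 libraries edgeR called no member, where it called 0.459% of all tested genes. DESeq2 called 1 of the 36 tested members, a smaller share than the 4.2% of all tested genes it called. That member was Prkcz, lower in high (adjusted p = 0.0477), a gene at 1.73 and 0 in the 2 high libraries of that fit and at 180.9 in the one left out of it. The median log2 fold change of the 36 tested members was -0.14, beside 0.00 over all tested genes. Libraries of the 2 populations did not overlap for 4 members, with Cldn4, Cldn7 and Scrib above in low and Magi3 above in high, where 7.34% of all tested genes did not overlap. Cldn4 was 2.76-fold and Cldn7 3.94-fold higher in low by the means, and Scrib 1.81-fold, while Magi3 was 1.84-fold higher in high. The high mean of Cldn4 rests mostly on high 1 (1309, beside 267.8 in high 2 and 150.3 in high 3), and the fold would be larger without it. Without low 3, Cldn23 became a call, at 0 in every high library and 217.5 and 152.9 in the other low libraries. Low 3 was the low library in which Cldn23 was at 0, so nothing is concluded from this call.

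A further 44 junction and polarity genes outside the 40 had a row in the table, of which 32 passed the filter. In low against neg 3 were called higher and 3 lower, or 18.8% of the 32 beside 4.69% of all tested genes. In high against neg 3 were higher and 1 lower (12.5% beside 4.69%), and in sub against neg 2 higher and 0 lower (6.25% beside 1.19%). Between the 3 EGFP-positive populations limma called 0. Of all tested genes it called 0.744% in low against sub, 0% in high against low and 0.986% in high against sub. At an unadjusted p under 0.05 there were 6, 1 and 6 in the same order, beside 1637, 684 and 1653 of the 16128 tested genes. Lsr, encoding angulin-1 of tricellular junctions, was at 0 in every neg library and ran from 658.3 to 2097 in the other 9 (limma adjusted p = 0.000449 in sub, 0.000126 in low and 0.000186 in high against neg). Cxadr, encoding the junction protein CAR, ran from 0 to 293.6 in neg, 3079 to 7791 in sub, 11838 to 13465 in low and 10928 to 15458 in high (0.00572, 0.000428 and 0.000329). Esam, an endothelial adhesion molecule of the JAM family, was at 2160, 1152 and 1876 in neg and 0 in every low library (adjusted p = 0.00602). At 49.3, 14.1 and 0 in high it was not called against neg (0.0526), nor was low against sub (0.0509). Amotl1, an angiomotin relative that binds junction proteins, was lower in low and high (adjusted p = 0.0177 and 0.0372), and Amotl2 in low (0.00667).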

How the data were processed

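Total RNA of 12 libraries, 3 from each of 4 sorted populations, was made into libraries, after 30 min of DNase, with the Takara SMARTer Pico v2 chemistry for stranded total RNA, a random-primed method for small inputs, per the labels' protocols. The values used were normalised counts, a signal for each gene in each library, in 1 table deposited by the authors, and every column matched 1 sample by its description. The submitters' processing notes name Salmon, DESeq2 1.26.0 and mm10 without their roles. The counting step, the annotation and the use of strand are not given in the sources used here.

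In every library 100% of the non-zero values fell on whole multiples of 1 step within 0.02 reads, so reads could be recovered, though a step near 1, as in sub 3 and high 2, makes this check uninformative. Depths so computed ran from 8775387 to 15535588. As Salmon estimates counts, a read here may be a rounded estimate. Genes with a mean of at least 10 were kept, and log2(normalised count + 1) of all 12 libraries was modelled by population alone with limma 3.58.1 (R 4.3.3, moderated with a variance trend), two-sided, in 6 comparisons with Benjamini-Hochberg adjustment over 16128 genes. Every adjusted p and call is limma's, on all 12 libraries, unless another tool or setting is named. On the log scale the pseudocount shrinks changes of genes with low values throughout. A library at 0 beside higher ones can instead enlarge them, as for Patj in low against neg (log2 6.81, but 20-fold by means). edgeR 4.0.16 (quasi-likelihood) and DESeq2 1.42.0 were alternatives on the recovered reads of 10 libraries, leaving out sub 3 and high 2. In sub against neg they called 255 and 1645 genes, where limma called 192. The tests were tested on simulated data, of which no outcome is reported here.

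A gene with no read in a population was set at a floor of 3 reads per library for folds, and ratios against 1 to 3 reads have exact Poisson 95% intervals. Levels between genes were compared per kb of merged exon of the GENCODE M21 models (GRCm38). Values were given in every library for claudins with a mean of at least 10 and for other members called in at least 1 comparison, and the rest by range. Members outside that rule shown in full, such as F11r, Cgn, Mpdz, Llgl2, Magi3 and Prkcz, were chosen after their values were seen. The members and lists were chosen with earlier results of these data known. Values of some genes in the counted lists are not reported here.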

Additional observations from a re-analysis of the deposited data

How the results depend on the processing

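Of the 24 member calls in 6 comparisons, 8 were kept in all 23 alternatives, those of Cldn3, Ocln, Pard6b and Jam2 in low against neg and high against neg, and 13, these 8 included, were kept in every alternative but the fit of only the 2 populations compared. No call changed direction. With a library left out in turn, the count of called members ran from 3 to 4 in sub against neg, 1 to 2 in low against sub, 0 to 1 in high against low, 4 to 8 in low against neg, 4 to 9 in high against neg and 1 to 1 in high against sub. Of all tested genes 0.924 to 1.97%, 0.26 to 1.05%, 0 to 0.217%, 2.88 to 4.57%, 2.9 to 4.94% and 0.459 to 1.52% were then called, in the same order. The fit of only the 2 populations compared, with fewer samples, gave 0 calls in sub against neg, low against sub and high against sub, and 5 each in low and high against neg, where 0, 0, 8, 203 and 341 of the 16128 tested genes were called. Without a variance trend there were 6 in low against neg (and 3.83% of all tested genes) and 4 in high against neg (4.29%). In sub against neg edgeR called 6 members (and 1.58% of all tested genes) and DESeq2 10 (and 10.2%), and in high against low DESeq2 called 1 (and 4.2%); the cause was not tested. A limma fit of the same 10 libraries, chosen after seeing the data, called 6 in low against neg (and 3.76% of all tested genes) and 5 in high against neg (3.45%). Over the 24 calls and 23 alternatives, 419 of 552 values were still called and 133 kept their direction but lost the call. Another 42 calls, in 13 members, were made under 11 of the alternatives and not by limma on all 12 libraries with the settings of the report.

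Over 18 same-numbered pairs the correlation of deviations from the population means ran from -0.016 to 0.027, with 0 over 0.1. Such correlations cannot tell whether same-numbered samples came from the same mouse. Same-numbered samples share that number and a column tag of unstated meaning, and were not treated as paired. With the replicate block the counts were 4 in sub against neg, 1 in low against sub, 0 in high against low, 9 in low against neg, 8 in high against neg and 1 in high against sub, beside 1.12, 0.515, 0.0062, 4.46, 4.43 and 0.806% of all tested genes. At 8775387 to 15535588 reads per library, a member at 0 was not detected at that depth, and the part of depth in these zeros was not tested. The mean log2 scale factors for equal totals differed most between low and neg, by -0.079 (low against neg).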
